A study of Mus musculus with 8 samples.

Results

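The genes described here encode the proteins by which a cell shows peptides to CD4 T cells and supplies the costimulatory signal those T cells need. The list holds 10 genes, H2-Ab1, H2-Aa, H2-Eb1, H2-DMa, H2-DMb1, Cd74, Ciita, Cd80, Cd83 and Cd86, and a gene entered through any probe set that carries its symbol and no other. Of the 10 genes, 9 had such a probe set, 1 each, and 8 passed the filter on dim probe sets and were tested, among 13296 genes tested in all. Cd74, the invariant chain, is read here by a probe set that carries a further gene symbol, so no value is given for it. H2-DMb1 did not pass the filter and is given by its array values alone.

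RNA was hybridised to Affymetrix Mouse Gene 2.0 ST arrays, 1 array for each pool of neutrophils from 5 mice, and all pools came from air pouches into which LPS, the endotoxin of Gram-negative bacteria, had been injected. The Arf6 conditional knockout (cKO, genotype flox+/+Cre+/+) had 3 arrays. The flox control (flox+/+Cre-/-) carries the floxed Arf6 allele without Cre and had 3 arrays, and the Cre control (flox-/-Cre+/+) carries Cre without the floxed allele and had 2. The cKO thus shares the floxed allele with the flox control and Cre with the Cre control, and neither labels nor design text state the promoter that drives Cre, the strain or the age of the mice. Pools were enriched by negative selection to 98% Ly6G-positive cells, Ly6G being a surface protein of mouse neutrophils, so other cells could hold part of the RNA.

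A class II molecule is a heterodimer of an alpha and a beta chain that binds peptides cut in endosomes, and it is best known from dendritic cells, macrophages and B cells. H2-DM helps it to exchange the invariant chain fragment for peptide, and CIITA is the coactivator that switches on the class II genes together with RFX and NF-Y, which bind the X and Y boxes of their promoters. CD80 and CD86 bind CD28 and CTLA4 on T cells, and CD83 marks mature dendritic cells and keeps class II and CD86 at the cell surface. Neutrophils at rest carry little class II, and its appearance on neutrophils exposed to cytokines has been described.

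The promoters of the class II genes are shown first because a shared promoter layout is what this gene family is known for. Cd74 was left out of this search. Of the other listed genes, 5 had an entry in RefSeq's table of promoters (GRCm38.p6), with 6 windows in all. The stretch from position -120 to -31 relative to the start site is printed 5′ to 3′ on the strand of the gene, with matches to the motifs searched in capitals. H2-Aa lies at chr17:34287854-34287943 on the minus strand, H2-Eb1 at chr17:34305747-34305836 and H2-DMb1 at chr17:34153071-34153160, both on the plus strand.
H2-Aa: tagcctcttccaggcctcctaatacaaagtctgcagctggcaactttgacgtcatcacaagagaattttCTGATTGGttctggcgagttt
H2-Eb1: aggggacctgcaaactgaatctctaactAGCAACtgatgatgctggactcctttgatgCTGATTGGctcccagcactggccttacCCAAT
H2-DMb1: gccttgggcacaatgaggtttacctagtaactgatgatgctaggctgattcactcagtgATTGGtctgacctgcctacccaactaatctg

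The motifs were searched in the 250 bases before each start site, on both strands. The Y box CTGATTGG, which contains the shorter core ATTGG, starts at position -51 in H2-Aa and at -62 in H2-Eb1. It is present in 3.83% of all 32851 promoters of that table. H2-DMb1 holds the core alone, at -61, and 1 of the 2 H2-DMa windows holds it at -198. H2-Eb1 holds a further match to the core at -35, on the opposite strand (CCAAT). The core is present in 33.8% of all promoters. The X box core AGCAAC was matched in H2-Eb1, at -92, and is present in 12.2% of all promoters. The NF-kB motif GGNNTTTCC was matched in H2-DMb1, at -172 on the opposite strand, and is present in 4.93% of all promoters. The Cd80 window held none of these letters, and a match or its absence is a description of the sequence alone.

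Arf6, the targeted gene, followed in 1 of its 2 probe sets the titles and genotype labels, although the source name given for each sample states a different genotype. Its probe set 17275925 read 6.06 to 6.49 (log2) in the cKO and 7.68 to 8.20 in the controls, and it fell by 1.67 on the log2 scale against both controls (SE 0.15, limma with Benjamini-Hochberg adjustment, adjusted p = 0.0122). Over 16 alternatives its adjusted p ran from 0.00201 to 0.182, and the call was lost when flox control replicate 2, either Cre control array or the 2 pools named next were left out. The other Arf6 probe set, 17281565, read 6.13 to 6.49 in the cKO and 6.20 to 6.81 in the controls (-0.15 against both controls, SE 0.15, limma adjusted p = 0.816). Array medians of the RMA-normalized values lay between 5.41 and 5.48. In flox control replicate 1 Xist read 5.46, against 7.84 or more in the other arrays, and in cKO replicate 1 Eif2s3y read 4.08, against 8.66 or more, so the sex makeup of these 2 pools differed from the rest. In bulk RNA, a change in the number of cells of a type cannot be told apart from a change in RNA per cell.

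The chains of the classical class II molecules were lower in the flox control than in the cKO and the Cre control, and their means in the cKO and the Cre control lay within 0.13 of each other. None of the 3 genes passed the threshold in any comparison. H2-Ab1, the I-A beta chain (gene identifier 14961, chromosome 17, probe set 17336494), read 10.47, 10.70 and 10.14 in the flox control arrays, 11.08, 11.07 and 10.86 in the cKO arrays, and 11.10 and 11.17 in the Cre control arrays (log2 level). All cKO and Cre control arrays lay above all flox control arrays. Its mean was 10.44 ± 0.28 (SD, n = 3) for the flox control, 11.01 ± 0.12 (SD, n = 3) for the cKO and 11.13 ± 0.05 (SD, n = 2) in the Cre control. The cKO exceeded the flox control 1.48-fold (log2 difference 0.57, SE 0.15, 95% interval 0.23 to 0.91, limma adjusted p = 0.369). The Cre control exceeded it 1.62-fold (0.70, SE 0.17, interval 0.32 to 1.07, limma adjusted p = 0.109). Between the cKO and the Cre control the difference was -0.13 (interval -0.50 to 0.25, limma adjusted p = 0.82).

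H2-Aa, the I-A alpha chain (14960, chromosome 17, probe set 17343813), had the same layout of groups. It read 8.99, 9.46 and 8.81 in the flox control arrays, 9.79, 9.90 and 9.52 in the cKO arrays, and 9.72 and 9.76 in the Cre control arrays. No cKO or Cre control array overlapped the flox control. The difference from the flox control was 0.65 for the cKO (SE 0.17, interval 0.26 to 1.04, limma adjusted p = 0.369) and 0.65 for the Cre control (SE 0.20, interval 0.22 to 1.09, limma adjusted p = 0.163), which is 1.57-fold for each. The cKO and the Cre control means were both 9.74, and the interval of their difference ran from -0.44 to 0.43.

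H2-Eb1, the I-E beta chain (14969, chromosome 17, probe set 17336502), read 9.16, 9.39 and 8.75 in the flox control arrays, 9.61, 9.82 and 9.35 in the cKO arrays, and 9.61 and 9.64 in the Cre control arrays. The lowest cKO array lay below the highest flox control array, so these groups overlapped, while the Cre control lay above all flox control arrays. The difference from the flox control was 0.49 for the cKO (SE 0.18, interval 0.10 to 0.89, limma adjusted p = 0.527) and 0.52 for the Cre control (SE 0.20, interval 0.08 to 0.97, limma adjusted p = 0.259). Within the flox control group replicate 3 was lowest and replicate 2 highest for all 3 chains, and within the cKO replicate 3 was lowest for all 3.

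**Figure D1:**
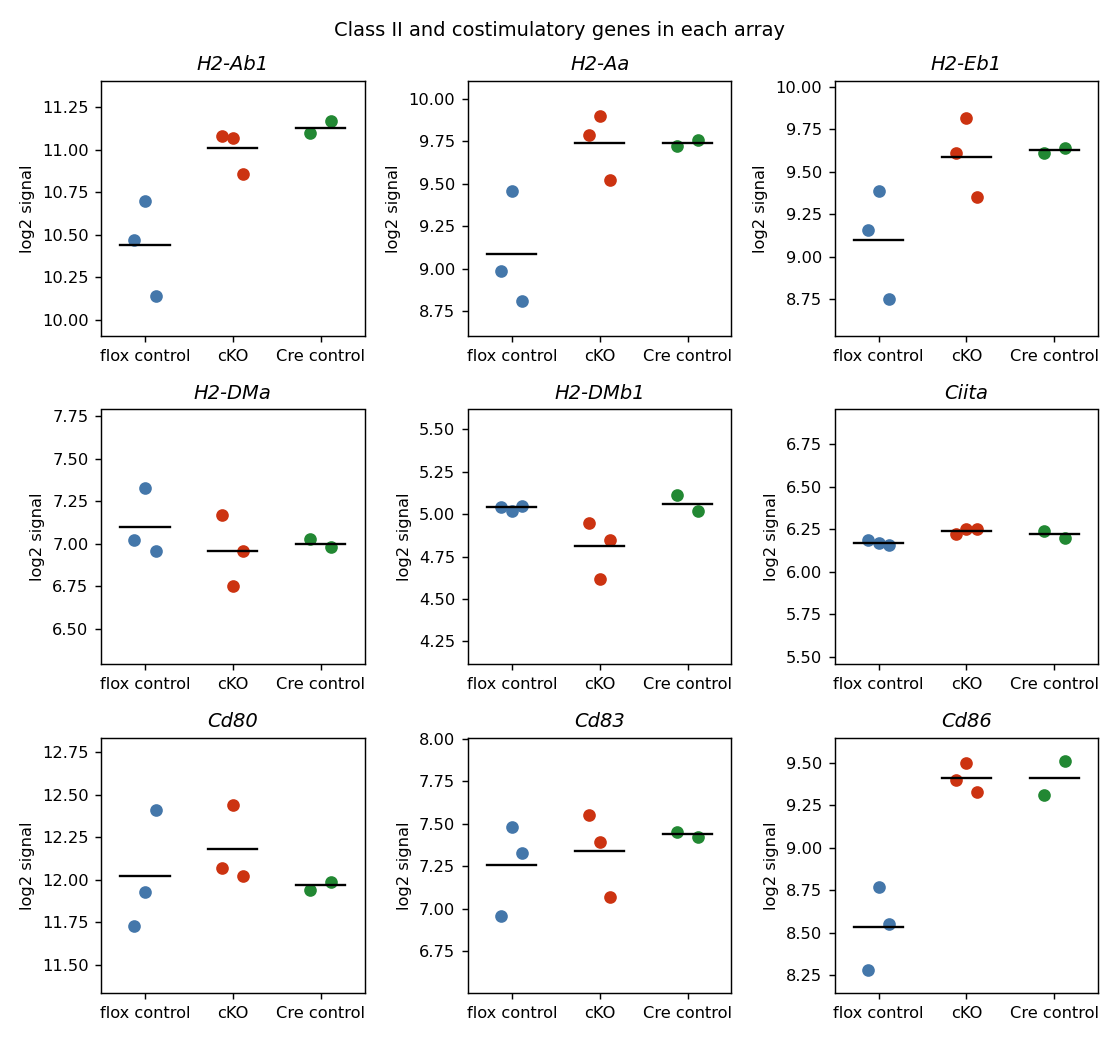
Level of the 9 genes with a probe set of their own in each of the 8 arrays (log2 probe set value), by group, with 1 point per array and a bar at the group mean. For H2-Ab1, H2-Aa and Cd86 every cKO and Cre control array lies above every flox control array, and Ciita stays between 6.16 and 6.25 in all arrays.

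The classical chains lie side by side on chromosome 17, and the tested genes around them had smaller differences, though the contrast between genes was not tested. The 11 other tested genes from H2-Oa to Btnl2 differed between cKO and flox control by -0.31 to 0.23 and between Cre control and flox control by -0.22 to 0.31, with an unadjusted p above 0.05 for each. Among these are Psmb8 and Psmb9, subunits of the immunoproteasome, at -0.20 and -0.31 in the cKO against the flox control. Tap1 and Tap2, which carry peptides to class I molecules, were at -0.15 and -0.07. H2-Eb2, the gene next to H2-Eb1, was at 0.00.

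**Figure D2:**
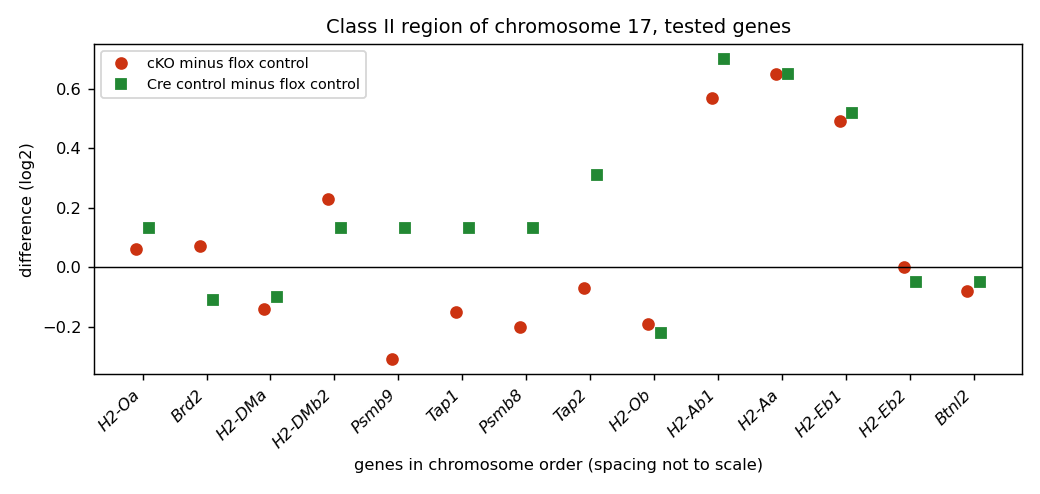
Differences in log2 level of the tested genes of the class II region of chromosome 17, in their order along the chromosome, for the cKO and the Cre control against the flox control. The 3 classical chains lie between 0.49 and 0.70, and the other genes between -0.31 and 0.31.

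H2-DMa, the alpha chain of H2-DM (14998, chromosome 17, probe set 17336407), read 7.02, 7.33 and 6.96 in the flox control arrays, 7.17, 6.75 and 6.96 in the cKO arrays, and 7.03 and 6.98 in the Cre control arrays. The groups overlapped. Its difference from the flox control was -0.14 for the cKO (interval -0.47 to 0.18) and -0.10 for the Cre control (interval -0.46 to 0.27). H2-DMb1, a beta chain of H2-DM (14999, chromosome 17), stayed below the filter value of 5.45 in every array, at 5.04, 5.02 and 5.05 in the flox control arrays, 4.95, 4.62 and 4.85 in the cKO arrays, and 5.11 and 5.02 in the Cre control arrays. All cKO arrays of this dim probe set lay below all control arrays, though the nearest values were 4.95 and 5.02. Among the 13296 genes tested, 295 were placed so. The means were 4.81 in the cKO and 5.04 in the flox control, and H2-DMb1 was not tested.

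Ciita, the class II coactivator (12265, chromosome 16, probe set 17322842), was nearly flat. Its values lay above the filter value of 5.45 but below 6.64, the 75th percentile of all values, so a small change may not show. It read 6.19, 6.17 and 6.16 in the flox control arrays, 6.22, 6.25 and 6.25 in the cKO arrays, and 6.24 and 6.20 in the Cre control arrays. The cKO and the Cre control lay above the flox control in every array, but the differences were 0.07 (interval -0.15 to 0.29) and 0.05 (interval -0.20 to 0.30). How the level of Ciita relates to that of the classical chains was not tested.

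The other genes of the class II pathway, a list of 18 that were all tested, included none past the threshold in any comparison. Against the flox control 11 were higher and 7 lower in the cKO (median difference 0.06, against 0.01 over all genes tested), and 13 were higher and 5 lower in the Cre control (median 0.13, against 0.0). Ifi30, a thiol reductase that unfolds antigens in lysosomes, read 9.77, 9.85 and 9.09 in the flox control arrays, 10.25, 10.24 and 9.78 in the cKO arrays, and 10.54 and 10.63 in the Cre control arrays. It was 0.52 above the flox control in the cKO (SE 0.21, limma adjusted p = 0.576) and 1.02 above it in the Cre control (SE 0.23, limma adjusted p = 0.105). Lgmn, the endosomal protease legumain, stood 0.59 above the flox control in the Cre control (SE 0.20). Marchf1, a ubiquitin ligase that removes class II and CD86 from the surface, was 0.44 above it there (SE 0.16), and Marchf8, a close relative, was 0.30 above it in the cKO (SE 0.12). Ctss, the protease that trims the invariant chain, differed by 0.00 in the cKO and by 0.42 in the Cre control. The RFX subunits showed no common direction, with Rfx5 at -0.25, Rfxap at 0.06 and Rfxank at 0.12 in the cKO against the flox control.

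Interferon gamma is the classical inducer of Ciita. Of 12 genes of this route 11 were tested and none passed in any comparison. Ifng itself read 5.43, 6.08 and 5.54 in the flox control arrays, 6.02, 5.48 and 6.38 in the cKO arrays, and 6.98 and 6.83 in the Cre control arrays. It stood highest in the Cre control, 1.22 above the flox control (SE 0.26, limma adjusted p = 0.0818) and 0.94 above the cKO (SE 0.26, limma adjusted p = 0.206), which overlapped the flox control. Irf8, a transcription factor of myeloid cells induced by interferon gamma, was 0.88 above the flox control in the Cre control (SE 0.21, limma adjusted p = 0.106) and 0.36 above it in the cKO. Ifngr1, the ligand-binding receptor chain, differed by -0.52 between the Cre control and the flox control (SE 0.14, limma adjusted p = 0.122). The median of the list was -0.11 for the cKO against the flox control and 0.16 for the Cre control against it.

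Of the costimulatory genes, Cd86 was lowest in the flox control, as the classical chains were, and Cd80 and Cd83 overlapped between the flox control and the other groups. Cd86 (12524, chromosome 16, probe set 17330203) read 8.28, 8.77 and 8.55 in the flox control arrays, 9.40, 9.50 and 9.33 in the cKO arrays, and 9.31 and 9.51 in the Cre control arrays. The highest flox control array (8.77) lay below the lowest of all other arrays (9.31). The mean was 8.53 ± 0.25 (SD, n = 3) for the flox control, 9.41 ± 0.09 (SD, n = 3) for the cKO and 9.41 ± 0.14 (SD, n = 2) in the Cre control. The cKO exceeded the flox control 1.83-fold (0.87, SE 0.14, interval 0.55 to 1.19, limma adjusted p = 0.14) and the Cre control exceeded it 1.84-fold (0.88, SE 0.16, interval 0.52 to 1.23, limma adjusted p = 0.0524). The difference between the cKO and the Cre control was 0.00 (interval -0.36 to 0.35). With array weights the comparison of the Cre control with the flox control passed (0.74, limma adjusted p = 0.0168), as it did with quantile scaling (0.89, 0.0457) and without cKO replicate 2 (0.88, 0.0375). Over its 17 alternatives adjusted p ran from 0.0168 to 0.373.

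Cd80, the other ligand of CD28 (12519, chromosome 16, probe set 17325608), read 11.73, 11.93 and 12.41 in the flox control arrays, 12.07, 12.44 and 12.02 in the cKO arrays, and 11.94 and 11.99 in the Cre control arrays. The flox control spanned nearly the whole range, and the difference of the cKO from it was 0.15 (interval -0.26 to 0.57). Cd83 (12522, chromosome 13, probe set 17286905) read 6.96, 7.48 and 7.33 in the flox control arrays, 7.55, 7.39 and 7.07 in the cKO arrays, and 7.45 and 7.42 in the Cre control arrays. Its difference from the flox control was 0.08 for the cKO (interval -0.29 to 0.45) and 0.18 for the Cre control (interval -0.23 to 0.60).

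**Figure D3:**
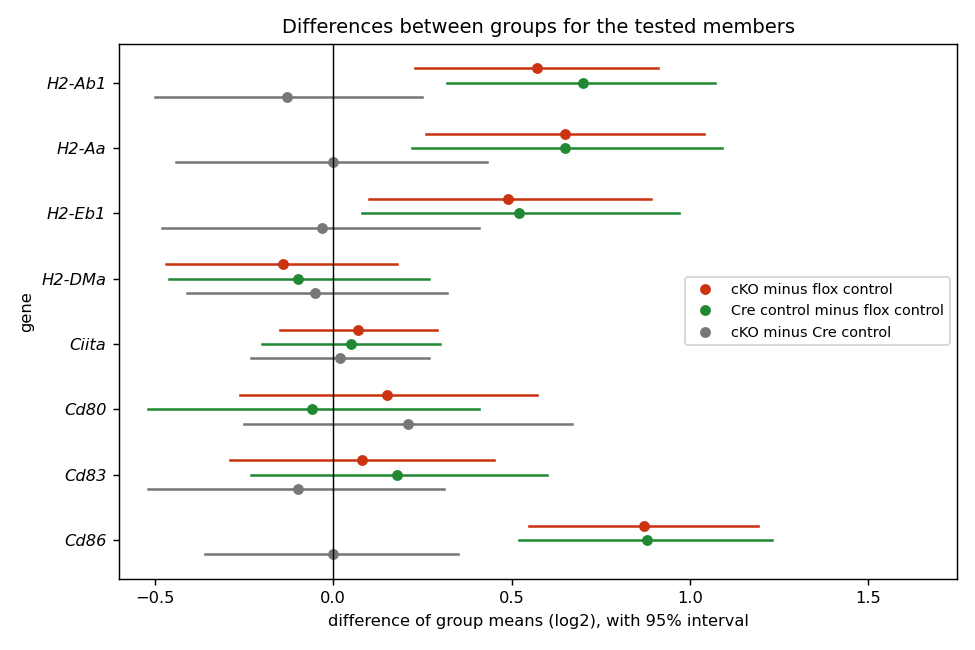
Differences of group means (log2) for the 8 tested genes, with 95% intervals from the limma fit, for the cKO against the flox control, the Cre control against the flox control and the cKO against the Cre control. For H2-Ab1, H2-Aa, H2-Eb1 and Cd86 the intervals of both comparisons with the flox control lie above 0, while all intervals of the cKO against the Cre control include 0.

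Against the flox control 0 of 8 passed in the cKO, where 0.0429% of the 14002 probe sets tested did, and 4 of 8 had an unadjusted p under 0.05 by limma, all higher, where 8.26% of probe sets did in either direction. Those 4 were H2-Ab1, H2-Aa, H2-Eb1 and Cd86. In 4 of 8, H2-Ab1, H2-Aa, Ciita and Cd86, all cKO arrays lay above all flox control arrays, as in 5.93% of probe sets. Between the Cre control and the flox control 0 of 8 passed, where 0.486% did, and an unadjusted p under 0.05 by limma was found for the same 4 genes, where 14.7% of probe sets had it. The arrays lay fully above the flox control in these 4 and in Ciita, as in 15.3% of probe sets. Both comparisons share the flox control arrays, so their values are not independent of each other.

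Between the cKO and the Cre control 0 of 8 passed by limma, where 0.0714% of probe sets did, and 0 of 8 had an unadjusted p under 0.05, where 13.5% did. The cKO lay fully above the Cre control in Cd80, as in 18.5% of probe sets, and fully below it in H2-Ab1, as in 16% of probe sets. Against the mean of both controls 0 of 8 passed by limma, where 0.00714% of probe sets did. Cd86 alone had an unadjusted p under 0.05 there (0.44, SE 0.13, limma adjusted p = 0.369), where 9.52% of probe sets did. In that comparison H2-Ab1 was at 0.22, H2-Aa at 0.32 and H2-Eb1 at 0.23. The control means lay 0.52 to 0.88 apart in these 4 genes, so their average falls between them.

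Without the 2 pools of distinct sex makeup the differences of the cKO from the flox control were 0.55 for H2-Ab1, 0.58 for H2-Aa, 0.51 for H2-Eb1 and 0.75 for Cd86, each with 2 arrays a group. Those of the Cre control from the flox control were then 0.72, 0.61, 0.55 and 0.75 in the same order of genes. By limma the adjusted p was then 0.844 or more for the cKO and 0.154 or more for the Cre control. The remaining pools still differed in Xist, which read 8.73 and 8.76 in the flox control arrays, 7.84 and 8.51 in the cKO arrays, and 9.34 and 9.39 in the Cre control arrays, and the part of sex makeup in the result was not tested.

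Among 14 other costimulatory and coinhibitory ligands, 11 were tested, and Cd40 was the gene that passed. Cd40, the receptor through which T cells license antigen-presenting cells, rose by 1.04 in the Cre control, with the flox control as reference (2.06-fold, SE 0.16, limma adjusted p = 0.0385). It read 8.09, 7.99 and 7.75 in the flox control arrays, 8.21, 7.91 and 8.35 in the cKO arrays, and 9.06 and 8.91 in the Cre control arrays. The cKO overlapped the flox control (0.21, SE 0.15) and lay below the Cre control (-0.83, SE 0.16, limma adjusted p = 0.12). The call was lost without cKO replicate 1 (adjusted p = 0.0765), replicate 1 or 2 of the flox control (0.0554 and 0.106), replicate 1 or 2 of the Cre control (0.34 and 0.293), or both pools of distinct sex makeup (0.117).

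The other ligands differed in both directions. Pdcd1lg2, a ligand of PD-1, was 0.53 above the flox control in the cKO (SE 0.19) and 0.85 above it in the Cre control (SE 0.22). Icosl, the ligand of ICOS, read 9.85, 10.21 and 10.30 in the flox control arrays, 9.08, 8.79 and 9.41 in the cKO arrays, and 9.63 and 9.40 in the Cre control arrays. All cKO and Cre control arrays lay below the flox control arrays. The mean was lower by 1.03 in the cKO (SE 0.18, limma adjusted p = 0.171) and by 0.61 in the Cre control (SE 0.20). Of the 13296 genes tested, 825 lay fully below the flox control in the cKO and 2322 in the Cre control. Tnfsf9, the ligand of 4-1BB, differed by -1.08 between the cKO and the flox control (SE 0.27, limma adjusted p = 0.348), and Icam1, the ligand of LFA-1, by -0.65 (SE 0.22). Cd274, which encodes PD-L1, differed by -0.01. Of the 8 T cell receptors of these ligands 6 were tested and none passed, with medians of 0.15 for the cKO and 0.42 for the Cre control against the flox control.

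Markers of other cells that carry class II were read in the same arrays. Of 16 dendritic cell markers 12 were tested and none passed. Their summed linear signal was 4226 to 5248 in the flox control, 5106 to 6720 in the cKO and 5380 to 6382 in the Cre control, so it was lowest in the flox control, with overlap. Against the flox control 9 were higher and 3 lower in the cKO (median difference 0.28). In the Cre control 9 were also higher and 3 lower (median 0.35). Ccr7, the receptor that guides mature dendritic cells to lymph nodes, read 8.31, 9.43 and 8.78 in the flox control arrays, 9.75, 9.58 and 9.37 in the cKO arrays, and 9.58 and 10.10 in the Cre control arrays (differences 0.73, SE 0.26, and 1.00, SE 0.29). Fscn1, the actin bundler of mature dendritic cells, differed by 0.59 (SE 0.18) and 0.77 (SE 0.21), and the chemokine Ccl22 by 0.53 and 0.66. Fscn1 lay above the flox control in every cKO and Cre control array, while Ccr7 and Ccl22 of the cKO overlapped it. Of the same list, Itgax differed by 0.25 (SE 0.22) in the cKO and by -0.23 (SE 0.24) in the Cre control. Cd207 differed by -0.19 (SE 0.11) and 0.00. The part of these genes' cells in the class II and Cd86 readings was not tested.

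Of the 6 genes that define dendritic cell types, 5 had a probe set of their own, and none passed the threshold. Zbtb46, the transcription factor of classical dendritic cells, read 5.22 to 5.50 over all arrays, and Xcr1, a chemokine receptor of the cross-presenting type, 5.44 to 5.78. Both lay close to the filter value of 5.45, where a change may not show. Siglech, of the plasmacytoid type, stayed below the filter value at 4.93 to 5.39. Flt3, the receptor for the growth factor of dendritic cells, read 5.99, 6.61 and 6.59 in the flox control arrays, 6.66, 6.98 and 6.51 in the cKO arrays, and 6.74 and 6.90 in the Cre control arrays (0.32, SE 0.19, for the cKO and 0.43, SE 0.21, for the Cre control against the flox control). Flt3 thus lay above the flox control in both Cre control arrays and overlapped it in the cKO. Cd209a, a lectin of monocyte-derived dendritic cells, has 2 probe sets that disagreed. Probe set 17507171 of Cd209a read 9.57 to 10.42 and differed from the flox control by -0.18 in the cKO and by -0.46 in the Cre control (SE 0.19, limma adjusted p = 0.312). Probe set 17507161 of Cd209a read 6.39 to 7.56 and differed by 0.06 and 0.39. Clec9a had no probe set of its own symbol alone.

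Macrophage and monocyte markers, 13 of 14 tested, summed to 11534 to 16108 in the flox control, 13299 to 14570 in the cKO and 14988 to 15160 in the Cre control, with none past the threshold. Against the flox control 8 of 13 were higher in the cKO (median difference 0.11) and 11 of 13 in the Cre control (median 0.29). Mertk, a receptor for the uptake of dying cells, was 0.29 above the flox control in the cKO (SE 0.11, limma adjusted p = 0.528) and 0.54 above it in the Cre control (SE 0.12, limma adjusted p = 0.0889), with no overlap of arrays in either. C1qb, a chain of complement C1q, differed by 0.27 and 0.76. Csf1r, the receptor for macrophage growth factor, differed by -0.04 between the cKO and the flox control, and Adgre1, a surface receptor of macrophages, by -0.26. T and NK cell markers, 10 of 12 tested, summed to 828 to 1013 in the flox control, 1078 to 1192 in the cKO and 1336 to 1397 in the Cre control, so these sums did not overlap. The brightest probe sets, those of Il7r and Gzma, weigh most in this linear sum, which also holds Klrb1c, below the filter. Of the 10 tested, none passed, 8 were higher in the cKO than in the flox control (median difference 0.3) and 9 in the Cre control (median 0.54). Among their defining genes, Cd3e differed by 0.34 and 0.85, Cd3g by 0.26 and 0.90 and Ncr1 by 0.33 and 0.67. Cd3d, also defining, differed by -0.23 and -0.48, in the same order of groups. Il7r, the interleukin 7 receptor of lymphocytes, was 0.78 above the flox control in the cKO (SE 0.15, limma adjusted p = 0.216) and 0.88 above it in the Cre control (SE 0.16, limma adjusted p = 0.0532).

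B cell markers summed to 368 to 420 in the flox control, 423 to 559 in the cKO and 446 to 588 in the Cre control, with Ms4a1 and Cd79a, which define B cells, below the filter. Of the 4 tested B cell markers, Bank1, an adaptor of B cell receptor signalling, had the largest differences from the flox control, 0.62 in the cKO (SE 0.29) and 0.81 in the Cre control (SE 0.32), while Cd79b differed by 0.06 and -0.04 and Pax5 by 0.03 and 0.00. The B cell sum covers 9 probe sets, of which 4 passed the filter, and Bank1, the brightest, weighs most in it. Eosinophil and mast cell markers summed to 603 to 871, 743 to 1226 and 785 to 1322 in the same order of groups, with Epx and Cpa3 below the filter. Of 8 genes in that list 4 were tested and none passed. Against the flox control 3 were higher and 1 lower in the cKO (median difference 0.5), and likewise in the Cre control (median 0.42). Siglecf differed by 0.50 in both, Ccr3 by 0.51 and 0.75, Prg2 by 0.60 and 0.34, and Tpsb2 by -0.01 and -0.21. Neutrophil markers, 11 of 12 tested, summed to 72291 to 73112 in the flox control, 69401 to 72560 in the cKO and 64065 to 66380 in the Cre control. None passed the threshold, and 8 of 11 were lower in the cKO than in the flox control (median difference -0.04). In the Cre control 10 of 11 were lower than in the flox control (median -0.19). Ly6g read 11.47, 11.20 and 10.96 in the flox control arrays, 10.54, 11.08 and 10.98 in the cKO arrays, and 10.79 and 10.66 in the Cre control arrays. The part of the lymphocyte, eosinophil and neutrophil signals in the class II readings was not tested, and neither was that of B cells or macrophages.

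**Figure D4:**
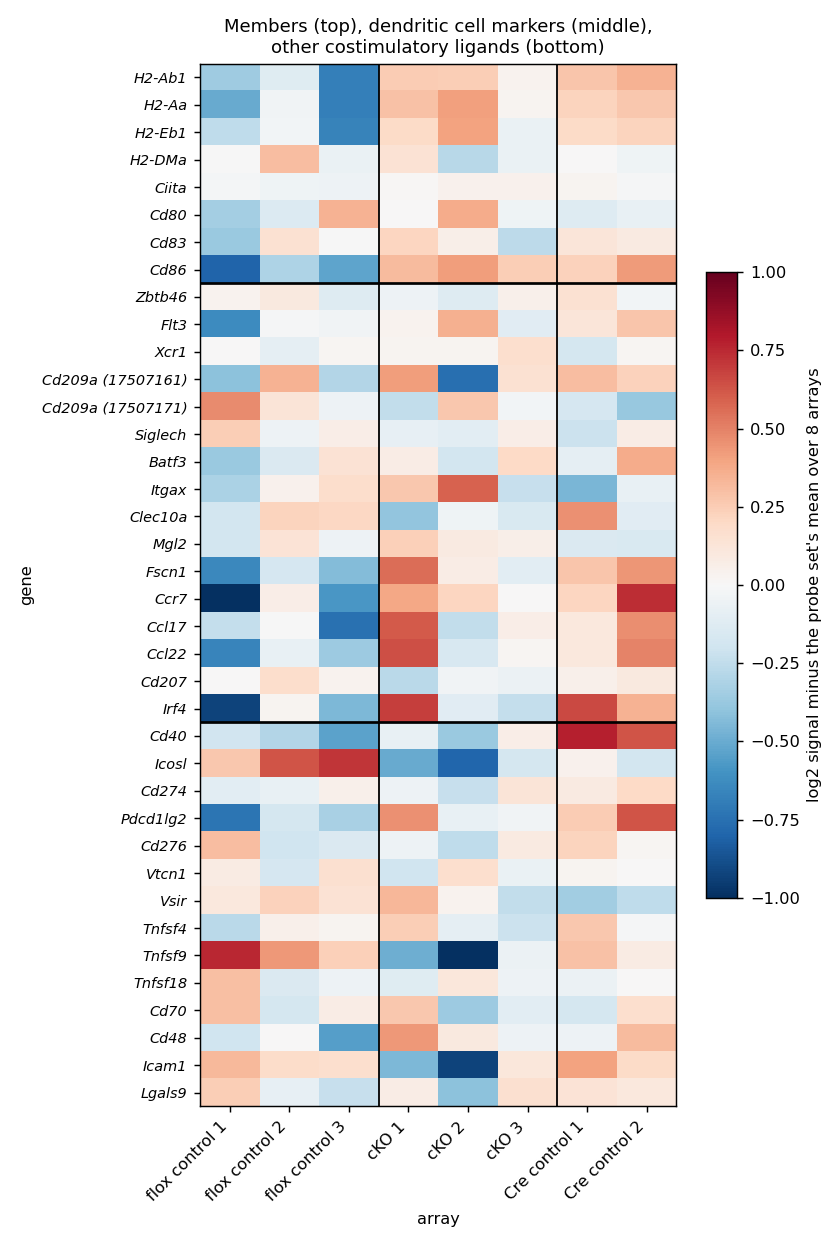
Level of the 8 tested class II and costimulatory genes (top), dendritic cell markers (middle) and other costimulatory ligands (bottom) in each of the 8 arrays, as the log2 difference from that probe set's mean over the arrays, red above and blue below it. Fscn1 and Ccr7 are lowest in flox control replicates 1 and 3, as H2-Ab1, H2-Aa and Cd86 are. Zbtb46 and Xcr1, both close to the filter value of 5.45, stay near their means, and Cd40 is highest in the Cre control.

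Genes whose pattern over the 8 arrays came closest to H2-Ab1 and to Cd86 were found by the root mean square difference of values centred on each gene's mean. For H2-Ab1 they were H2-Aa (0.09), the chemokine Cxcl16 (0.09), H2-Eb1 (0.10), the ubiquitin ligase Ube3c (0.11), the annexin Anxa4 (0.11) and the ribosomal protein Rps3 (0.12). The other classical chains thus ranked 1 and 3 among all tested probe sets, and Cd86 ranked 190 (0.21). The ranks that follow also count probe sets. For Cd86 they were Il7r (0.11), Ktn1 (0.12), Ube3c (0.14), Tmem123 (0.16), Lmbrd2 (0.16) and the amino acid transporter Slc7a1 (0.16), with H2-Aa at rank 12 (0.18). The remaining genes of the list lay further off, with Cd83 at rank 2021, Ciita at 2425, H2-DMa at 7376 and Cd80 at 9982 from H2-Ab1.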

How the data were processed

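The authors deposited log2 probe set values after background subtraction and Robust Multiarray Analysis (RMA) in Affymetrix Expression Console, per the series' design text. For the software version, the genome build of the probe sets and the set of arrays normalized together, nothing is stated in the sources used here. RNA reagents and labelling kits differ between design text and labels. RNA input was 100 ng per array, per the labels' protocols. Each genotype had 3 pools according to the design text. The values available here held 2 Cre control arrays, and all 8 arrays present were analysed. Groups came from titles and genotype labels.

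Of 34472 probe sets, 23521 carried 1 gene symbol, 1814 several and 9137 none. Those with 1 symbol that exceeded 5.45 (log2), the overall median, in 2 or more arrays numbered 14002 and were fitted with limma 3.58.1 in R 4.3.3, as 3 group means over all 8 arrays (degrees of freedom: 5 residual, 4.69 prior). All p-values are two-sided, with Benjamini-Hochberg adjustment across the 14002 and a threshold of 0.05. SE and intervals are those of this fit. The pipeline was tested on simulated data. A gene with several probe sets is counted by its brightest. Named were all listed genes, list genes past the threshold and otherwise those with the smallest p or needed for a role, and the 6 genes closest in pattern. The genes and lists were chosen with earlier results of these data known. The number of arrays limits the precision.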

Additional observations from a re-analysis of the deposited data

How the results depend on the processing

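The alternatives were other filters, scalings, variance models, array weights, probe set selections, fits of the compared groups alone, and the omission of arrays. The differences of H2-Ab1, H2-Aa and Cd86 from the flox control kept their direction and an unadjusted p under 0.05 by limma in 17 of 17 alternatives, for the cKO and for the Cre control. H2-Eb1 in the cKO kept its direction in 17 of 17 and that p in 13. Of 532 alternative values for the 8 tested genes, 504 kept direction and side of the threshold.

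The count of tested genes past the threshold for the Cre control against the flox control went from 0 to 1, Cd86, with array weights and with quantile scaling, and ran from 0 to 1 over the omission of each array (1 without cKO replicate 2). The other changes of direction concern uncalled differences near 0, and their cause was not tested. With median centring Cd83 was at 0.01 for the cKO against both controls, and against the Cre control Cd86 was at 0.03, H2-Aa at 0.03 and H2-Eb1 at 0.00. With array weights Cd83 was at -0.03 for the cKO against the flox control and H2-DMa at 0.00 against the Cre control. Without the 2 pools of distinct sex makeup Cd83 was at -0.17 against the flox control and Cd86 at 0.00 against the Cre control. Over the omission of each array in turn, the cKO against both controls ran from -0.12 to 0.12 for Cd83 and from -0.20 to 0.01 for H2-DMa, and against the flox control from -0.07 to 0.21 for Cd83. Against the Cre control it ran from -0.21 to 0.03 for Cd83, 0.00 to 0.04 for Ciita, -0.10 to 0.09 for Cd86, -0.15 to 0.06 for H2-DMa, -0.14 to 0.09 for H2-Eb1 and -0.09 to 0.10 for H2-Aa. The Cre control against the flox control ran from -0.20 to 0.14 for Cd80 and from -0.17 to 0.02 for H2-DMa. Where a Cre control was left out, the lone array was taken to vary like the other groups. No paired analysis was possible because the labels give no replicate numbers shared between groups.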
